A study of Homo sapiens with 3 samples.

Results

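The 44 genes described here encode the proteins that copy DNA in S phase and the enzymes that supply its nucleotides. They form a list of named genes with these functions, chosen with earlier results of these data known. Each was followed through 1 probe set, the brightest on average of those that named the gene alone, and its further probe sets served as a check. All 44 were found among the 19775 genes with such a probe set. All 44 lay above the floor on all 3 arrays, where the floor is the 50th percentile of all values, an intensity of 10.5. Of all genes, 12447 were above it on at least 1 array and form the background.

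DNA replication starts at origins. There the origin recognition complex, CDC6 and CDT1 load the ring-shaped MCM helicase during G1, and CDC45 and the GINS complex switch it on in S phase. Polymerases, the sliding clamp PCNA and its loader then copy both strands, while ribonucleotide reductase and thymidylate synthase provide deoxynucleotides. Many of these genes are targets of E2F transcription factors, which the RB protein holds back until cyclin-dependent kinases inactivate it. Their messages are therefore high in dividing tumour cells and low in resting ones.

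UM-UC-3, an established human bladder cancer line, received DANCR siRNA1, DANCR siRNA2 or a control siRNA, each at 75 nM and with the same lipid reagent. RNA was taken after 48 h and hybridised to Affymetrix arrays, 1 array per group. The knockdown was transient and in bulk cultures of 1 cell line, so fewer cells in S phase and less RNA per cell cannot be told apart. With no replicate arrays there is no test, and every difference is given by its size alone. The siRNA sequences are shown because the replication genes followed a different course with each. They come from the labels, printed in lower case, and the labels do not say which strand is given.
control siRNA: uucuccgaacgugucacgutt
DANCR siRNA1: gcguacuaacuuguagcaatt
DANCR siRNA2: gagcuagagcagugacaautt

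The targeted long noncoding RNA, DANCR, gave intensities of 671 on the control array, 116 on the siRNA1 array and 126 on the siRNA2 array. Array medians were 10.5 in each case. The 3'/5' ratio of GAPDH, a measure of RNA and labelling quality, was 1.25 on the control array, 1.29 on the siRNA1 array and 1.35 on the siRNA2 array, and that of ACTB was 11.9, 11.8 and 14.4. The siRNA2 array had the highest of both ratios, and their part in the results below was not tested. Of the epithelial and urothelial markers, 6 of 14 lay above the floor. The keratin KRT18 was the brightest, at 1315, 711 and 1022. The others above the floor, KRT7, KRT8, GATA3, FOXA1 and PPARG, lay between 12.5 and 35.2. KRT19, KRT5, KRT20 and ELF3 were not above the floor. Nor were the uroplakins UPK1A, UPK1B, UPK2 and UPK3A, which define mature urothelium. The leukocyte markers reached 23.0 at most, with PTPRC, CD14 and LYZ not above the floor. Fibroblast and endothelial markers reached 30.9 at most, with DCN and LUM not above it.

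Promoter sequence was examined because most of the genes were lower together on the siRNA2 array. RefSeq windows of 300 bases on GRCh38.p14, from 250 bases before the transcription start to 50 after, were held for 38 of the 44 genes, and for genes with several starts the one listed first was used. The E2F-like motif TTTNNCGC, on either strand, was present in 22 of 38 windows (57.9%), against 6.9% of all 27305 windows and 10.3% of those of measured genes. CCAAT, the box bound by NF-Y, was present in 21 of 38 (55.3%), against 35.7% of all windows. Both motifs together were in 13 windows (34.2%), against 2.6%. A match is a description of letters and not a bound site. The windows shown are those of the 3 genes with the lowest siRNA2 to control ratio, of UHRF1, which had the lowest siRNA1 ratio among members with a mean intensity of at least 100, and of GINS1, which was higher with each siRNA. Capitals mark E2F-like motifs and CCAAT boxes, each on either strand; the pair of E2F-like matches in MCM2 overlap as 1 palindrome.
CDC6 (chr17:40287629-40287928, plus strand): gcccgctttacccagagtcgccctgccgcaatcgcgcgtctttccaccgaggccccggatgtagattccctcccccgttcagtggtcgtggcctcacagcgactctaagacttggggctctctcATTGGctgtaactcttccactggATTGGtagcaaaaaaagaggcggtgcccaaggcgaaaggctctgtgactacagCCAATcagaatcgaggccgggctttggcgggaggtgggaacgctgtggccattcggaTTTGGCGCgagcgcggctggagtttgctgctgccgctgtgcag
MCM2 (chr3:127598161-127598460, plus strand): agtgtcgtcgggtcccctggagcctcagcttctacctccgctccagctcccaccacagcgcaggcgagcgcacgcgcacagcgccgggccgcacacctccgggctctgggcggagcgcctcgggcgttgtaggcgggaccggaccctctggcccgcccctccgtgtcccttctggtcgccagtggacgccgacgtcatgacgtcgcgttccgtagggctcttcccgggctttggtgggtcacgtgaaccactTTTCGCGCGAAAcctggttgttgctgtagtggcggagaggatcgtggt
RRM2 (chr2:10122489-10122788, plus strand): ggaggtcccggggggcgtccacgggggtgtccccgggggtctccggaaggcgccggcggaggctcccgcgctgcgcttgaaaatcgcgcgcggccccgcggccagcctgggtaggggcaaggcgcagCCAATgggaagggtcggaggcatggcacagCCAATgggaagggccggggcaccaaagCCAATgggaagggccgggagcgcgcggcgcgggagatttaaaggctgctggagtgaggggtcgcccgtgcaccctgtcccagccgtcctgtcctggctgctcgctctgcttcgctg
UHRF1 (chr19:4909251-4909550, plus strand): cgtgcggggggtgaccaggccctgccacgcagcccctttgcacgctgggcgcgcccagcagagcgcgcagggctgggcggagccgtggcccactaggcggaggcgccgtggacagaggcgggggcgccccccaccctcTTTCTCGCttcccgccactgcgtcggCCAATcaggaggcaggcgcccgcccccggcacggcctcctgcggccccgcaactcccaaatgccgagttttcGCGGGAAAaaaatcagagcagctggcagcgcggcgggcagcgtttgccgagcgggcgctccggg
GINS1 (chr20:25407423-25407722, plus strand): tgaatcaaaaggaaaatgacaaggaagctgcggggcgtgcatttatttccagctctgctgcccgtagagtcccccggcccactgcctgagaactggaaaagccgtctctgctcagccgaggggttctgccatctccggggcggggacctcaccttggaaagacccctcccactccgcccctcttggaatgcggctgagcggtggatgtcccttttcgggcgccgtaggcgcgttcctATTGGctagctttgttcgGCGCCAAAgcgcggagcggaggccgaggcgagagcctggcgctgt

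The CDC6 window held 1 E2F-like match, centred 11 bases from the start, and 3 CCAAT boxes, whereas RRM2 held 3 CCAAT boxes and no E2F-like match. GINS1 also held 1 match to each motif. With siRNA2 the median log2 ratio was -0.41 over the 22 genes with the E2F-like motif and -0.34 over the 16 without it. With siRNA1 these medians were -0.18 and -0.10. For CCAAT the order was reversed. With siRNA2 the median was -0.34 over the 21 genes with a CCAAT box and -0.48 over the 17 without it. With siRNA1 these were -0.04 and -0.17. Whether any of these groups differed was not tested.

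The first comparison asked how the replication genes stood with DANCR siRNA2. Of the 44 genes, 41 were lower than in the control (93.2%), against 36.2% of all measured genes. By at least 1.2-fold, 31 were lower (70.5%), against 13.3% of all genes, and 0 were higher, against 23% of all genes. The median log2 ratio was -0.41, against 0.00 over all measured genes. The shift was broad and shallow: CDC6 alone was lower by at least 2-fold, against 1.21% of all genes. The exceptions were 3 genes, GINS1, PRIM2 and TIPIN, which were higher than in the control (against 45% of all genes), each by less than 1.2-fold. Among genes with a mean intensity of at least 100, 22 of the 34 members were lower by at least 1.2-fold (64.7%), against 16.7% of genes that bright.

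DANCR siRNA1 gave a different picture. Of the 44 genes, 26 were lower than in the control (59.1%), against 39.5% of all measured genes, and 16 were higher, against 42.2%. By at least 1.2-fold, 15 were lower (34.1%), against 16.5%, and 7 were higher, against 20.3%. The median log2 ratio was -0.10, against 0.00 over all genes. POLD1 and UHRF1 were lower by at least 2-fold, against 1.75% of all genes. On the log2 scale the members ran from -1.45 to 0.42 with siRNA1 and from -1.10 to 0.26 with siRNA2. The low ends were single genes, POLD1 and CDC6. Percentiles 1 and 99 of all measured genes were -1.20 and 1.17 with siRNA1 and -1.08 and 1.26 with siRNA2. Both comparisons use the same control array, so they are not independent of each other.

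**Figure D1:**
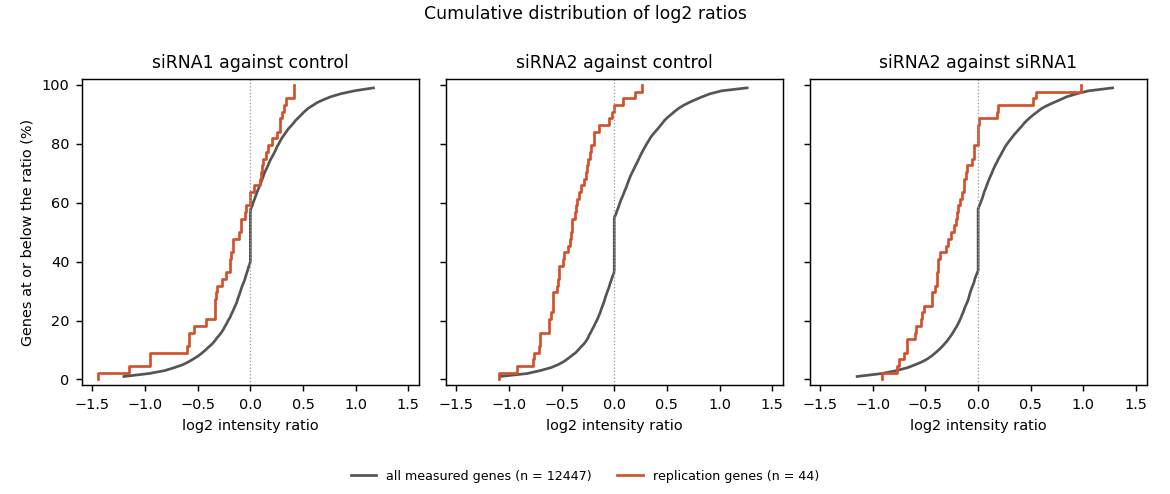
Cumulative distributions of log2 intensity ratios for the 44 replication genes (orange) and all 12447 measured genes (grey, drawn from percentile 1 to 99) in 3 comparisons, 1 array per group. The horizontal axis is the log2 ratio and the vertical axis the percent of genes at or below it; for siRNA2 against control the replication genes lie to the left, with a median of -0.41 against 0.00.

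The siRNA arrays were also set against each other, without the control array. This comparison uses the same siRNA arrays as the comparisons above, so it is not independent of them. Relative to siRNA1, 36 of the 44 genes were lower with siRNA2 (81.8%), against 36.7% of all measured genes, and 7 were higher, against 41.8%. By at least 1.2-fold, 21 were lower (47.7%), against 14.6%, and 3 were higher, against 20.7%. Those 3 were POLD1, CDC45 and UHRF1. The median log2 ratio was -0.24, against 0.00 over all genes. In 34 of the 44 genes the siRNA2 array was the lowest of the 3 (77.3%), against 20.8% of all measured genes. For 19 of them the order was control, then siRNA1, then siRNA2 from high to low (43.2%), against 8.31%. In 13 genes siRNA1 was the highest and siRNA2 the lowest (29.5%), against 9.47%. These were ORC1, ORC6, MCM3, MCM6, MCM7, POLE2, RFC2, RFC3, RFC4, RFC5, RPA2, RPA3 and RRM1. The siRNA1 array was the lowest for 6 genes, CDC45, POLA1, PRIM1, POLD1, LIG1 and UHRF1 (13.6%), against 25.2%. The control array was the lowest for the 3 exceptions above (6.82%), against 29.1%. In ORC1, MCM3 and POLE2 the ratio to the control was at least 1.2-fold up with siRNA1 and at least 1.2-fold down with siRNA2, which held for 1.68% of all measured genes.

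**Figure D2:**
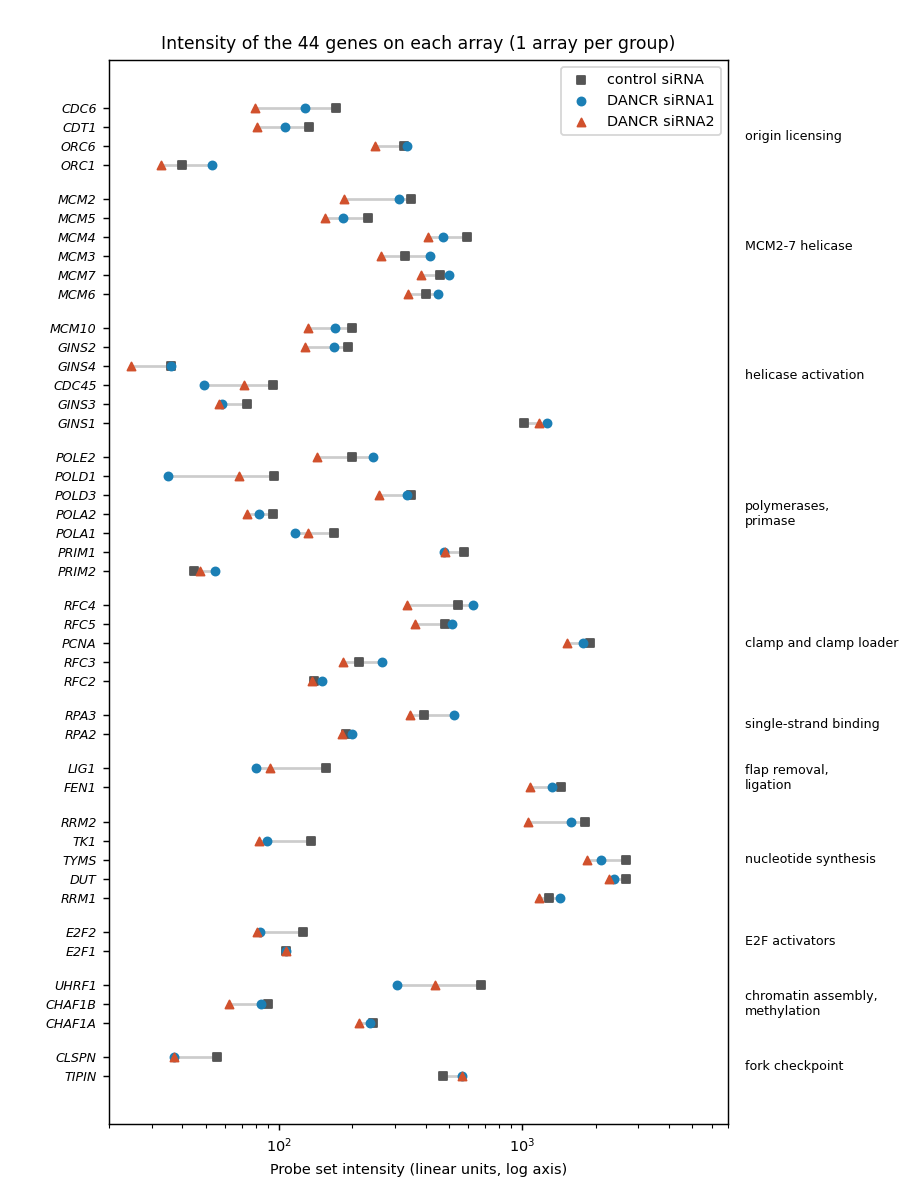
Intensity of each of the 44 genes on the control (grey square), DANCR siRNA1 (blue circle) and DANCR siRNA2 (orange triangle) arrays, grouped by role, on a log axis with 1 array per group. The siRNA2 array is the lowest of the 3 in 34 genes; POLD1, CDC45 and UHRF1 stand out with siRNA1 lowest.

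All 4 origin licensing genes were lower with siRNA2 by at least 1.2-fold, against 13.3% of all measured genes. CDC6, the ATPase that brings the helicase to the origin, gave intensities of 171 on the control array, 127 on the siRNA1 array and 79.8 on the siRNA2 array. It stepped down across the arrays and was 1.34-fold and 2.14-fold lower than in the control. Its second probe set, at 109.7, 128 and 90.5, was above the control with siRNA1 and 1.21-fold below it with siRNA2. CDT1, which works with CDC6 and is destroyed once S phase begins, was at 133, 106 and 80.9, lower by 1.26-fold and 1.64-fold. ORC1, the large ATPase subunit of the origin recognition complex, was at 39.7, 53.0 and 32.5, so it was above the control with siRNA1 and below it with siRNA2. ORC6, the smallest subunit, was at 327, 335 and 247, with only the siRNA2 array standing apart. The median log2 ratio of the 4 licensing genes was -0.56 with siRNA2 and -0.15 with siRNA1.

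The 6 subunits of the MCM helicase, which unwinds the double strand, were also all lower with siRNA2, against 36.2% of all measured genes. MCM2 was at 349.5 on the control array, 311 on the siRNA1 array and 185 on the siRNA2 array, and was 1.89-fold lower with siRNA2. MCM4 was at 589, 473 and 407, and MCM5 at 231, 184 and 154. These 3 subunits were below the control with each siRNA, and lowest with siRNA2. MCM3, by contrast, was at 329.5, 418 and 261, higher by 0.34 with siRNA1 and lower by 0.34 with siRNA2 on the log2 scale. MCM6, at 401, 449.5 and 338, and MCM7, at 459.5, 499.5 and 382, followed the order of MCM3. With siRNA1, 3 of the 6 subunits were lower (50%, against 39.5% of all measured genes) and 3 were higher, against 42.2%. These shares were near those of all genes. With siRNA2 the log2 ratios of the 6 subunits ran from -0.92 to -0.24.

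Of the 6 genes that activate the helicase, 5 were lower with siRNA2, against 36.2% of all measured genes. MCM10, which helps to open the loaded helicase, was at 199, 169.5 and 132, and GINS2 at 192, 167 and 128. GINS4 was at 35.9 in both the control and siRNA1 and at 24.6 with siRNA2, but its further probe sets gave a siRNA2 log2 ratio of 0.00. GINS3 was at 73.4, 58.2 and 56.7, with little between the siRNA arrays. CDC45, the helicase cofactor that GINS accompanies, was at 94.5, 49.0 and 71.7. It was 1.93-fold below the control with siRNA1 and 1.32-fold with siRNA2, the reverse of the order seen for most replication genes. GINS1 was at 1016, 1266 and 1166, above the control with each siRNA, so the GINS subunits did not share 1 direction.

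Among polymerases and primase, 6 of 7 were lower with siRNA2, against 36.2% of all measured genes, and 5 of 7 with siRNA1, against 39.5%. POLD1, the catalytic subunit of polymerase delta, was at 95.5 on the control array, 35.0 on the siRNA1 array and 68.7 on the siRNA2 array. It had the lowest ratio to the control of all 44 genes with siRNA1, 2.73-fold lower, and was 1.39-fold lower with siRNA2. POLD3, an accessory subunit of the same enzyme, was at 349, 336 and 256, so the low siRNA1 value of POLD1 was not shared by it. POLA1, the catalytic subunit of polymerase alpha, was at 168, 116 and 131, and its partner POLA2 at 94.6, 82.8 and 73.5. The primase subunit PRIM1 was at 574, 476 and 479, and the other primase subunit, PRIM2, at 44.5, 54.2 and 47.1. PRIM1 was therefore about equally low with each siRNA, while PRIM2 was above the control. POLE2, a subunit of the leading-strand polymerase epsilon, was at 200.0, 243 and 143, higher with siRNA1 and lower with siRNA2.

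The 4 clamp loader subunits among the members were lower with siRNA2 and, on their brightest probe sets, higher with siRNA1. RFC4 was at 545 on the control array, 629 on the siRNA1 array and 334 on the siRNA2 array, a log2 difference of -0.91 between the siRNA arrays. RFC3 was at 214, 264 and 183, and RFC5 at 479.7, 516 and 362. RFC2 differed least, at 139, 149.6 and 136. On these probe sets the 4 subunits were above the control with siRNA1 and below it with siRNA2, as were 9.47% of all measured genes. RFC2 was below the control by only 1.02-fold. RFC1, a loader subunit from the list of other replication factors, had the same order, at 160, 174 and 143. For RFC5 the siRNA1 direction did not hold on its other probe sets, with log2 ratios of -1.90 and 0.00. PCNA, the sliding clamp that they place on DNA, was at 1893, 1777 and 1521, lower by 0.09 and 0.32 on the log2 scale. The single-strand binding subunits followed the loader's order: RPA2 was at 188, 199.5 and 182 and RPA3 at 394, 524 and 346. With siRNA2 neither reached 1.2-fold.

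The enzymes that finish the lagging strand were lower with each siRNA. LIG1, the ligase that joins Okazaki fragments, was at 155, 80.2 and 91.4, which is 51.7% of the control with siRNA1 and 58.9% with siRNA2. FEN1, the nuclease that trims flaps before ligation, was at 1434, 1326 and 1074. LIG1 was thus low on both siRNA arrays, and FEN1 mainly on the siRNA2 array.

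All 5 nucleotide synthesis genes were lower with siRNA2, against 36.2% of all measured genes. RRM2, the subunit of ribonucleotide reductase whose level rises in S phase, was at 1802 on the control array, 1590.0 on the siRNA1 array and 1055 on the siRNA2 array, which is 58.6% of the control with siRNA2. RRM1, the large subunit of the same enzyme, was at 1286, 1426 and 1166, and its siRNA2 log2 ratio was -0.14 against -0.77 for RRM2. With siRNA1 the subunits had opposite directions on these probe sets, but not on the second ones, where the log2 ratios were 0.01 for RRM2 and 0.00 for RRM1. TK1, the thymidine kinase of the salvage route, was at 135, 89.0 and 82.8. TYMS, which makes thymidylate, was at 2663, 2104 and 1848. DUT, which removes dUTP, was at 2659, 2371 and 2275. TK1 and TYMS were lower by at least 1.2-fold with each siRNA, and DUT by less than that with each on its brightest probe set.

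The activators and the chromatin genes were mixed. E2F1, an activator of S-phase genes, was at 107 on the control array, 107 on the siRNA1 array and 106 on the siRNA2 array, so the 3 arrays were nearly equal. E2F2, another activator, was at 125, 83.3 and 81.2, which is 66.6% and 64.9% of the control. UHRF1, which carries DNA methylation through replication with DNMT1, was at 676, 305 and 439. It was at 45.1% of the control with siRNA1 and 64.9% with siRNA2. CHAF1A and CHAF1B, the chromatin assembly factor subunits that load histones behind the fork, were at 243, 236 and 213, and at 89.8, 84.5 and 62.4. CLSPN, the fork checkpoint adaptor claspin, was at 55.3 in the control and 36.9 on each siRNA array. TIPIN, a fork protection factor, was at 472, 563 and 565, above the control on each siRNA array.

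Further probe sets of the same genes were used as a check on these values. Of the 44 genes, 25 had a second probe set above the floor. With siRNA2 it was below the control in 24 of 25 (96%), against 35.7% of all genes with such a probe set. Its median log2 ratio was -0.33, and it was opposite in sign to the brightest probe set in 0. With siRNA1 it was lower in 13 of 25, with a median of -0.04, and opposite in 4, CDC6, MCM10, RFC5 and RRM2. For CDC6 the second probe set gave log2 ratios of 0.22 with siRNA1 and -0.28 with siRNA2, so the 2-fold value with siRNA2 rests on 1 probe set. RFC5 had a second probe set at 448, 120.2 and 357, a log2 ratio of -1.90 with siRNA1, where the brightest gave 0.10 and the third gave 0.00. The RFC5 value with siRNA1 thus depends on the probe set, whereas all 3 were lower with siRNA2. The second probe sets of RRM2 (-0.83) and TK1 (-0.70) gave siRNA2 ratios close to the first. Others were smaller in size on the second probe set, which is the dimmer one by definition. CDT1 went from -0.72 to -0.32, GINS2 from -0.58 to -0.04, CLSPN from -0.59 to -0.14 and GINS4 from -0.54 to 0.00. Some were larger in size: MCM7 went from -0.27 to -0.54, TYMS from -0.53 to -0.75, FEN1 from -0.42 to -0.51 and CHAF1A from -0.20 to -0.30. DUT had further probe sets at 1461, 1035 and 961, and at 255, 134 and 174, lower with each siRNA by more than the brightest one. All 4 further probe sets of MCM4 above the floor were lower or equal with siRNA2, with log2 ratios of -0.77, -0.34, -0.43 and 0.00. POLD1, CDC45, LIG1, UHRF1, MCM2 and RFC4 had 1 probe set each and no such check.

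**Figure D3:**
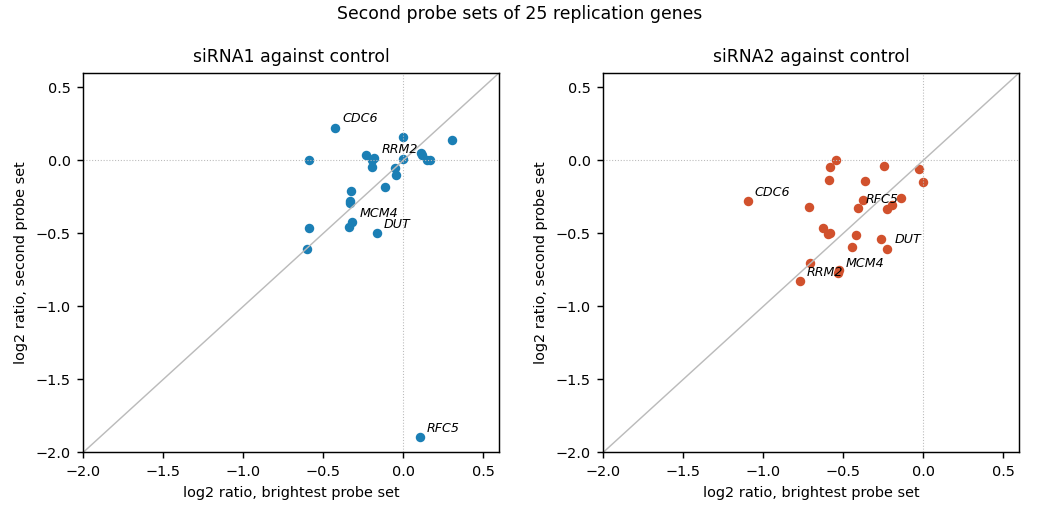
Log2 ratio to the control on the brightest probe set (horizontal) and the second probe set (vertical) of the 25 replication genes with both above the floor, for siRNA1 (left) and siRNA2 (right), with the line of equality. With siRNA2 none has opposite signs; with siRNA1 the second RFC5 probe set lies far below the line at -1.90.

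Other replication factors, taken from a list of 32 genes that does not overlap the 44, had a median nearer 0. Both lists were chosen with earlier results of these data known, and subunits of some complexes are split between them. The contrast between the lists may therefore reflect how they were drawn. With siRNA2, 23 of 32 were lower (71.9%, against 36.2% of all measured genes) and 12 by at least 1.2-fold (37.5%, against 13.3%), with a median log2 ratio of -0.21. With siRNA1, 11 of 32 were lower (34.4%, against 39.5%) and 6 by at least 1.2-fold (18.8%, against 16.5%), with a median of 0.00, so these shares were near those of all genes. TOPBP1, a scaffold of helicase activation, was at 376, 345 and 181. GMNN, geminin, the inhibitor of CDT1, was at 822, 405 and 494, low on each siRNA array. POLE3, a small subunit of polymerase epsilon, was at 293, 441 and 170.3, with the siRNA arrays on opposite sides of the control, as for POLE2. POLD4, a small subunit of polymerase delta, was higher with siRNA2, at 44.9, 44.9 and 67.5. POLD2, chosen after its values were seen, was at 130.1, 64.3 and 120.2, and thus low with siRNA1 as was POLD1.

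Other enzymes of nucleotide metabolism had a median near 0 with siRNA2. Of 26 measured, 10 were lower with siRNA2 (38.5%, against 36.2% of all measured genes) and 4 by at least 1.2-fold (15.4%, against 13.3%), shares near those of all genes. The median log2 ratio was 0.02. With siRNA1, 16 were lower (61.5%, against 39.5%) and 7 by at least 1.2-fold (26.9%, against 16.5%), with a median of -0.09. The salvage kinase DCK was at 133, 113 and 86.9, and the thymidylate kinase DTYMK at 791, 727 and 552. PPAT, which starts purine synthesis, was at 174, 137 and 122. These 3 were low with siRNA2, while RRM2B, the reductase subunit induced by p53, was higher, at 75.2, 85.9 and 103.

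Regulators of the G1/S transition included CCND1, the gene with the lowest siRNA2 to control ratio of all measured genes. This D-type cyclin, which drives RB phosphorylation, was at 1044 on the control array, 429.9 on the siRNA1 array and 96.2 on the siRNA2 array. SKP2, the F-box protein that targets p27, was at 650.5, 746 and 175, and CCNE2, cyclin E2, at 463, 269.6 and 195. All 3 were lowest on the siRNA2 array. CDK6, a kinase partner of cyclin D, went the other way, at 316, 184 and 1137. Of the 25 measured genes, 17 were lower with siRNA1 (68%, against 39.5% of all measured genes), with a median of -0.14. The count with siRNA2 was also 17 (68%, against 36.2%), with a median of -0.14, but the genes were not all the same: CDK6 was lower with siRNA1 alone and SKP2 with siRNA2 alone.

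Mitosis genes were also lower more often with siRNA2 than with siRNA1. With siRNA2 all 30 were lower, against 36.2% of all measured genes, and 21 by at least 1.2-fold (70%, against 13.3%). Their median was -0.40, against -0.41 for the replication genes. With siRNA1 15 of 30 were lower (50%, against 39.5%) and 8 by at least 1.2-fold (26.7%, against 16.5%). Their siRNA1 median was -0.01, against -0.10 for the replication genes. The lowest relative to control with siRNA2 were KIF2C, a microtubule depolymerase, at 661, 502 and 357, and CENPA, the centromeric histone, at 138, 109.9 and 77.0. CCNB1, cyclin B1, was at 547, 489 and 309.5, and PRC1, a midzone bundling protein, at 675, 619 and 401. Whether the lists differed was not tested. The E2F-like motif was present in 3 of 24 windows of mitosis genes (12.5%, against 10.3% of windows of measured genes), and CCAAT in 16 of 24 (66.7%, against 36.5%). The CHR element of cell cycle promoters, TTTGAA or TTCGAA on either strand, was in 16 of 24 (66.7%, against 11.4%) and in 2 of the 38 windows of the replication genes (5.26%).

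Probe sets of replication-dependent histone genes were mostly higher with siRNA2. Cells normally express these genes in step with DNA synthesis. Whether the intensities follow the histone messages made in S phase was not tested. Of 10 measured, 0 were lower with siRNA2, against 36.2% of all measured genes, and 7 were higher by at least 1.2-fold, against 23%. The median was 1.15. With siRNA1 1 was lower, against 39.5%, 3 were higher by at least 1.2-fold, against 20.3%, and the median was 0.11. H2BC5 was at 58.0, 157 and 306, and H2AC6 at 48.0, 95.9 and 220.4. H2BC4 was at 15.9, 17.6 and 47.6, and H2BC21 at 11.5, 11.5 and 31.2, near the floor without siRNA2. H4C8, at 8.14, 7.23 and 20.3, was above the floor on the siRNA2 array alone. It is counted as measured only through that array, so its place among the higher genes was fixed by the filter. H2AC8, at 6.91, 11.0 and 12.5, was under the floor in the control and passed the filter through the siRNA arrays. It could therefore not count as lower with either siRNA. Histone genes of 1 class are near-identical in sequence, so which gene a probe set reads is uncertain. With siRNA2, 8 of the 10 histone genes were higher than in the control, against 45% of all measured genes. The same 8 were higher than with siRNA1, against 41.8%. The others, named after their values were seen, were H1-4, at 15.9, 16.7 and 15.9, and H3C2, above the floor on the siRNA1 array alone. H3C2 therefore counts as equal between siRNA2 and the control, not as lower or higher. With siRNA1 it could not count as lower, so the histone counts and medians were in part fixed by the filter.

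**Figure D4:**
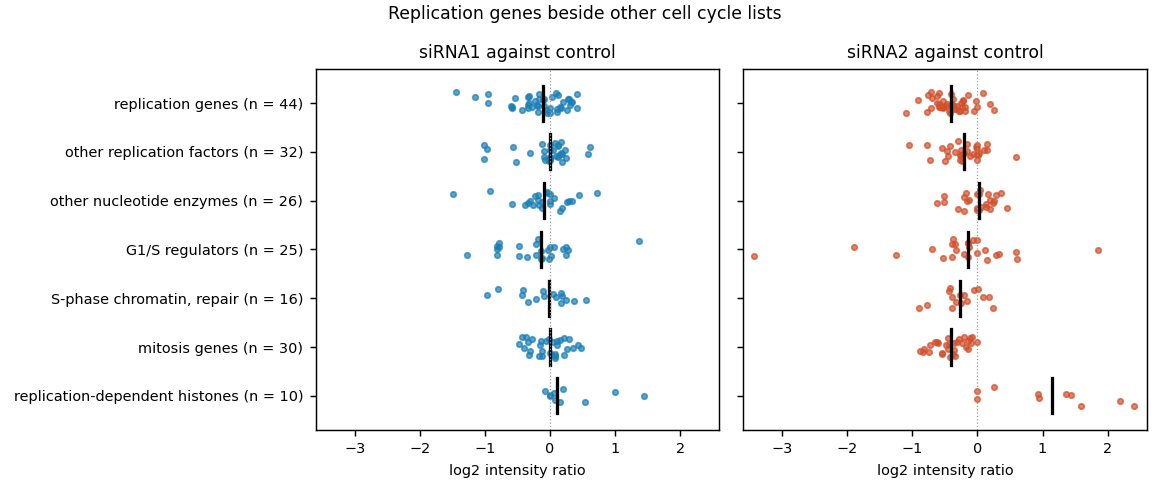
Log2 ratios to the control of single genes (points) and list medians (black bars) for the replication genes and 6 other lists, with siRNA1 (left) and siRNA2 (right), 1 array per group. With siRNA2 the medians of replication and mitosis genes lie at -0.41 and -0.40 and that of histone genes at 1.15.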

How the data were processed

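The deposited values were probe set intensities on a linear scale, 1 column for each of 3 arrays. How the authors scaled these intensities is not given in the sources used here; GCOS 1.4 was named per the submitters' processing notes. Equal values recur between arrays, and 32.1% of the 54675 probe sets were equal on all 3. Precision is limited by the number of arrays, 1 per group. Probe sets naming 1 gene in the annotation supplied for the array were used (41091), Affymetrix control probe sets left out, and each gene was read from its brightest one on average. Values under the 50th percentile of all values were raised to it before log2 ratios were taken. Each siRNA was set against the control and against the other. Called means past 1.2-fold or 2-fold, and counts are read against percents over all measured genes. No p-value was computed.

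The members and lists were chosen with earlier results of these data known. The text gives values for members at least 1.2-fold from the control with both siRNAs or 1.5-fold with either (21 genes), other members more briefly, and up to 4 genes per other list with the largest siRNA2 ratio, with those 2-fold with both. DNMT1, POLD2, RFC1, H1-4, H2AC8, H3C2 and H4C8 were added after their values were seen. Tried as alternatives were other scalings (quantile, median-centred), other floors (percentile 30, percentile 70, none), other probe set choices, a 1.5-fold threshold and means. The restriction to genes with a mean intensity of at least 100 was chosen after seeing the data. The procedure was tested on simulated data. Software was pandas 2.3.3 with numpy 2.4.6 under Python 3.11.15, scipy 1.17.1 and, for plots, matplotlib 3.10.9.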

Additional observations from a re-analysis of the deposited data

Results flagged for a closer look

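For 3 of the 44 replication genes the siRNA arrays lay on opposite sides of the control array, each by 1.2-fold or more. The difference between the siRNAs was not tested, since each had 1 array. ORC1 had log2 ratios of 0.42 (siRNA1) and -0.29 (siRNA2). For MCM3 they were 0.34 and -0.34, and for POLE2 0.28 and -0.48. Each of these genes had 1 probe set.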

How the results depend on the processing

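The members' median log2 ratio stayed below 0 in all 3 comparisons under every alternative run. With siRNA2 it ran from -0.46 under quantile normalisation to -0.33 on second probe sets, and the share lower from 90.9% to 96%. Quantile normalisation, which separates equal values, put 51.7% of all measured genes below the control with siRNA2, and 93.2% of members. With siRNA1 the median ran from -0.12 under quantile normalisation to -0.02 without _s_at and _x_at probe sets, where 50% of members were lower. The mean over members with siRNA1 was -0.16. At a 1.5-fold threshold 15.9% of members were lower with siRNA1, 25% with siRNA2 and 18.2% with siRNA2 against siRNA1, against 6.03%, 4.28% and 5.21% of all genes. The count lower by 2-fold with siRNA1 was 1 in place of 2 among genes with a mean intensity of at least 100, where POLD1 is not included. It was also 1 on second probe sets, but that gene is RFC5, and POLD1 and UHRF1 have no second probe set, so their values were not checked there. With siRNA2 it fell from 1 to 0 by the median over probe sets, on second probe sets and without _s_at and _x_at probe sets, where CDC6 had its other probe set. Of single genes, CDC6 with siRNA1 turned to 0.22 on its further probe set, also the one left without _s_at and _x_at probe sets, and RFC5 with siRNA2 against siRNA1 turned to 1.57 on a further probe set. No paired analysis was possible because each group had 1 array. All members lay above the floor, which is no detection call, and GINS4, among the dimmest, went from -0.54 to -0.27 with siRNA2 when the floor was set at the 70th percentile. The lack of replicates limits every value.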

Other observations

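Genes of chromatin maintenance and DNA repair in S phase were also lower more often with siRNA2 than with siRNA1. Of 16 measured, 12 were lower with siRNA2 (75%, against 36.2% of all measured genes) and 8 by at least 1.2-fold (50%, against 13.3%), with a median log2 ratio of -0.26. With siRNA1, 8 were lower (50%, against 39.5%) and 5 by at least 1.2-fold (31.2%, against 16.5%), with a median of -0.02. ASF1B, a histone chaperone of dividing cells, was at 197, 205 and 106 in the control, siRNA1 and siRNA2 arrays. The mismatch repair protein MSH6 was at 367, 290 and 213, the chromatin ATPase ATAD2 at 365, 271 and 271, and the nuclease EXO1 at 51.0, 29.2 and 38.2. DNMT1, the maintenance methyltransferase that UHRF1 recruits, chosen after its values were seen, was at 406, 207 and 335, with siRNA1 lowest, the order also seen for UHRF1.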
